A study of Macaca mulatta with 31 samples.

Results

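Blastocysts whose embryo had fragmented during development were compared with blastocysts whose embryo had not, among rhesus macaque embryos produced while the females ate a standard chow diet (SCD). The 14 blastocysts were chosen by their labels for diet and for morphology, out of 31 in the series, and fall into 6 fragmented (SCD 1 and SCD 3 to SCD 7) and 8 non-fragmented blastocysts (SCD 8 to SCD 15). All came from young adult females that had eaten chow since weaning, in the first cycle of controlled ovarian stimulation (COS #1), and were grown to the blastocyst stage after in vitro fertilization. Both classes carry the label non-multipolar, meaning that the early divisions were not seen to split a cell into more than a pair. The zona pellucida was dissolved before lysis, and RNA of each whole blastocyst was amplified and sequenced as 1 library. The labels do not give the female of origin, which was not used, so blastocysts of the same female are treated as independent. By the paper's account, the SCD blastocysts came from fewer females than there are blastocysts in either class. The 17 WSD blastocysts of the series, from COS #2 after a high-fat Western-style diet, are 9 fragmented and 8 non-fragmented, and are used only to set beside the SCD comparison.

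Fragmentation is the pinching off of membrane-bound pieces of cytoplasm from the cells of a cleaving embryo. The pieces can carry RNA, organelles and sometimes chromosomes, and may be left outside the blastocyst or taken up again by its cells. A blastocyst holds an outer trophectoderm, which forms the placenta, and an inner cell mass that sorts into epiblast, the source of the fetus, and primitive endoderm, which lines the yolk sac, while the RNA stored in the oocyte has mostly been replaced by the embryo's own.

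The total count per blastocyst was 13834097 at the lowest, 18906774 at the median and 27992541 at the highest among the fragmented blastocysts. Among the non-fragmented blastocysts it was 11997445 at the lowest, 17889220 at the median and 25466146 at the highest. The classes overlapped in depth, and the mean log10 total count was 7.31 ± 0.115 (SD, n = 6) against 7.27 ± 0.1105 (SD, n = 8; two-sided exact permutation test, p = 0.557, adjusted p = 0.792 over the 6 library measures). Levels are given in CPM, counts scaled to the size of the library, which are not divided by gene length and are therefore compared between blastocysts. A gene called most abundant, or given as a share of a list, is so by counts or CPM without regard to gene length. Without molecular identifiers, amplified copies of 1 molecule cannot be told from separate molecules.

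The labelled tissue was checked against cell type markers. Summed over 9 trophectoderm genes, the level was 3931 to 14800 CPM in the fragmented and 5032 to 14370 CPM in the non-fragmented blastocysts, with KRT18, an epithelial keratin, giving 62.3% of the sum. The 10 epiblast genes summed to 1062 to 2094 CPM and 917 to 2494 CPM, and the 10 primitive endoderm genes to 513 to 3256 CPM and 698 to 4043 CPM. The trophectoderm and epiblast genes had counts in each of the 14 blastocysts, apart from FGF4 of the epiblast list, which had 0 CPM in SCD 13. Of the primitive endoderm list, GATA6 and PDGFRA were present in each, but in SCD 13 FOXA2 had 0 CPM, GATA4 0.443 CPM and RSPO3 0.0554 CPM, and in SCD 7 FOXA2 had 0.0695 CPM and GATA4 1.81 CPM. Sperm genes were near 0, at a summed level of at most 0.939 CPM, with no count of PRM1, a protamine. Of the 9 cumulus and granulosa genes, 4 passed the filter on low counts, and the sum of the list, 75.6% of it STAR, ran from 42.3 to 112 CPM and from 34.1 to 82.1 CPM. The median log2 difference of these 4 was -0.16, with 0 under an unadjusted p-value of 0.05 in edgeR, and it was above 0 without SCD 7, SCD 9 or SCD 12, at 0.04, 0.39 and 0.01, and at 0.17 without both SCD 3 and SCD 7. FSHR, the receptor of follicle-stimulating hormone, was at most 0.225 CPM in a fragmented and 0.350 CPM in a non-fragmented blastocyst. In bulk samples, fewer cells of a type and less RNA per cell cannot be told apart.

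Expression of all genes was compared first, to ask whether blastocysts that had fragmented differ from those that had not under the same diet. No gene passed the test. The 4 genes of smallest unadjusted p-value were FBXL2, a substrate-binding subunit of a ubiquitin ligase, FAM120B, a coactivator of PPAR gamma, and CFAP54, a protein of motile cilia, with higher levels in fragmented blastocysts, and TRIM56, a ubiquitin ligase of the innate immune response, with lower ones. Of 13561 genes tested by edgeR's quasi-likelihood F test, 0 (0%) had an adjusted p-value under 0.05, and the lowest one was 0.9995. Under the alternatives the lowest adjusted p-value was 0.186 with DESeq2, 0.355 without SCD 4, 0.402 without a filter on low counts, 0.499 with edgeR's newer dispersion method, and 0.985 or more with the others. Before adjustment, 340 genes (2.51%) had a p-value under 0.05 by edgeR and 448 by DESeq2's Wald test, which also called 0 genes. Of the 340 genes, 251 (73.8%) were higher and 89 lower in fragmented blastocysts.

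That lean was not seen without SCD 3. Of the 251 higher genes, 169 (67.3%) had their highest level of the 14 blastocysts in SCD 3, and 36 (14.3%) had it in SCD 6. All 251 had it in a fragmented blastocyst, and of the 6432 tested genes for which that holds, SCD 3 was the highest in 2657 (41.3%) and SCD 6 in 896 (13.9%). Without SCD 3, edgeR gave 184 genes with an unadjusted p-value under 0.05, 92 higher and 92 lower, and 0 were called. Of the 251 higher genes 71, and of the 89 lower genes 48, were also under 0.05 in that fit. Without SCD 7, another fragmented blastocyst, there were 629 such genes, 373 of them higher, and 0 were called. Without both, there were 453, of which 188 (41.5%) were higher and 265 lower, so the lean was in the opposite direction, with 0 called. Without any filter on low counts, 3466 of 31784 genes (10.9%) were under 0.05, with 0 called, and the median log2 difference of all genes moved from 0.02 to 0.14.

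The data bound the differences better for abundant genes. Over all tested genes the median absolute log2 difference was 0.22, the median standard error 0.37, and the median half-width of the 95% interval 0.77, or 1.71-fold. For the 1183 genes with a mean under 1 CPM the median half-width was 1.72 on the log2 scale, and for the 83 genes above 1000 CPM it was 0.49. Differences over 2-fold were fitted in 680 genes that were higher and 139 that were lower, against 391 and 280 without SCD 3. None of the 83 genes above 1000 CPM had an unadjusted p-value under 0.05 in edgeR, against 4.68% of those between 1 and 10 CPM and 2.7% of those under 1 CPM.

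The 10 genes of smallest unadjusted p-value that were higher in fragmented blastocysts, and the 10 that were lower, were taken next, each with an adjusted p-value of 0.9995 in edgeR. FBXL2 (chromosome 2, 14296124 to 14423446 in Mmul_10) had 2.17 CPM at the lowest, 3.25 at the median and 13.2 at the highest in fragmented blastocysts, against 0.366, 0.948 and 1.94 CPM in non-fragmented ones. The classes did not overlap, and SCD 3 stood far above the other fragmented blastocysts. The log2 difference was 2.08 ± 0.50 (SE; unadjusted p = 0.000608), and it was 1.46 without SCD 3. FBXL2 overlaps UBP1 on the other strand, and the kit does not keep the strand, so reads of the pair may not be told apart. The same holds for ASTE1 with ATP2C1, PLK1 with ERN2 and PRDX1 with MMACHC, and HADH, SLC22A5, ZNF483 and TAOK2 overlap unnamed loci on the other strand. Other genes reported below also overlap loci on the other strand, among them BID, GATA6, GATA3, CASP8, CCNB1 and RSPO3.

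TRIM56 (chromosome 3, 43215711 to 43221036) had 2.19, 3.29 and 4.99 CPM at the lowest, median and highest in fragmented blastocysts and 5.00, 7.70 and 9.50 CPM in non-fragmented ones. The classes did not overlap, although SCD 3 at 4.99 CPM and SCD 14 at 5.00 CPM nearly met. The log2 difference was -1.17 ± 0.30 (SE; unadjusted p = 0.00121), and it lay between -1.32 and -1.10 with each blastocyst left out in turn. Over all tested genes, the levels of the classes did not overlap in 3 genes that were higher (0.0221%) and in 1 that was lower (0.00737%). For any gene without ties, 1 of the 3003 ways to choose 6 of the 14 blastocysts puts the chosen ones above the rest. Another 1 of these ways puts the chosen ones below the rest. With 1 blastocyst left out, which leaves fewer values to overlap, the counts were 3 to 12 higher and 1 to 8 lower genes, with 3 and 3 without SCD 3, 12 and 6 without SCD 7 and 4 and 8 without SCD 14. The other 2 higher genes with all 14, chosen after their values were seen, were TDRD12, which acts in the piRNA pathway of germ cells, at 4.41 to 14.8 CPM against 0.754 to 4.30 CPM, and ENSMMUG00000055581, at 1.45 to 3.27 CPM against 0 to 1.20 CPM. TDRD12 had 14.8 CPM in SCD 3 and at most 5.48 CPM in the other fragmented blastocysts.

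HADH, SLC22A5 and FAM120B were 3 of the 20, each with overlapping classes. HADH (chromosome 5, 106356066 to 106402115), a mitochondrial enzyme of fatty acid oxidation, had 39.2, 57.8 and 112 CPM in fragmented blastocysts at the lowest, median and highest and 22.2, 27.4 and 55.9 CPM in non-fragmented ones. SCD 3 and SCD 6 were the highest, and SCD 11 and SCD 12 reached into the range of the fragmented class (log2 difference 1.09 ± 0.29). SLC22A5 (chromosome 6, 129820761 to 129846380), which brings carnitine into the cell for fatty acid oxidation, had 1.93, 5.33 and 6.74 CPM in fragmented and 6.59, 10.6 and 15.8 CPM in non-fragmented blastocysts. Only SCD 7 among the fragmented blastocysts came up to the lowest non-fragmented one, SCD 14 (log2 difference -1.21 ± 0.36). FAM120B had 17.2, 22.3 and 36.3 CPM against 9.001, 12.98 and 17.9 CPM, with only SCD 1 below the highest non-fragmented blastocyst, SCD 11 (log2 difference 0.98 ± 0.26).

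The other 7 higher genes included EZHIP, CFAP54 and PCDH18. EZHIP, an inhibitor of the Polycomb enzyme EZH2 that is normally made in gonads, had 0.486, 3.39 and 20.2 CPM in fragmented and 0, 0.728 and 1.87 CPM in non-fragmented blastocysts, a log2 difference of 2.78 ± 0.76. It was highest in SCD 3 and SCD 6, and without SCD 3 the log2 difference was 1.90. CFAP54 had 0.857, 2.80 and 10.6 CPM against 0.415, 0.779 and 2.01 CPM. PCDH18, a protocadherin of cell adhesion, had a median of 1.82 CPM against 0.375 CPM, and its log2 difference of 3.46 ± 0.97 came down to 1.51 without SCD 3 (unadjusted p = 0.0788 in edgeR), which alone had 32.5 CPM. ASTE1 likewise had 46.0 CPM in SCD 3 and a log2 difference of 1.62 ± 0.47, against 0.77 without that blastocyst. ZNF483, a zinc finger protein, and the unnamed genes ENSMMUG00000011029 and ENSMMUG00000057520 had medians of at most 2.37 CPM in both classes, with log2 differences of 1.94, 4.52 and 3.23. These were 1.33 and 1.94 without SCD 3 for ZNF483 and ENSMMUG00000057520, and 3.11 without SCD 6 for ENSMMUG00000011029.

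MMP2, AHNAK and EMD were among the other lower genes, and the classes overlapped in each. MMP2, a secreted protease that degrades collagen of basement membranes, had 0.589, 6.58 and 7.73 CPM in fragmented and 2.65, 21.2 and 36.8 CPM in non-fragmented blastocysts. Every fragmented blastocyst was below 6 of the 8 non-fragmented ones, and the exceptions were SCD 8 and SCD 10 (log2 difference -1.95 ± 0.57). AHNAK, a very large scaffold protein under the plasma membrane, had 210, 301 and 494 CPM against 225, 612 and 873 CPM (log2 difference -0.82 ± 0.28). EMD, which encodes emerin of the inner nuclear membrane, had 23.1, 29.9 and 32.3 CPM against 22.1, 47.0 and 66.3 CPM (log2 difference -0.73 ± 0.24), with SCD 9 as the only non-fragmented blastocyst that was not above all the fragmented ones. TAOK2, a kinase that acts on microtubules, had a median of 25.9 CPM against 48.8 CPM, and FAM83H, a protein of the keratin cytoskeleton, 4.94 CPM against 10.7 CPM. C2CD4A and ENSMMUG00000056002 were low in both classes, with medians of at most 0.221 CPM in fragmented and 1.44 CPM in non-fragmented blastocysts and log2 differences of -2.89 and -2.14. For C2CD4A the log2 difference was -4.41 without SCD 3. None of the 20 genes changed its direction in any of the 492 alternative values computed for them. These genes were chosen by p-value in the same blastocysts, and the alternatives reuse the same counts. A constant direction was therefore largely fixed by the choice.

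**Figure D1:**
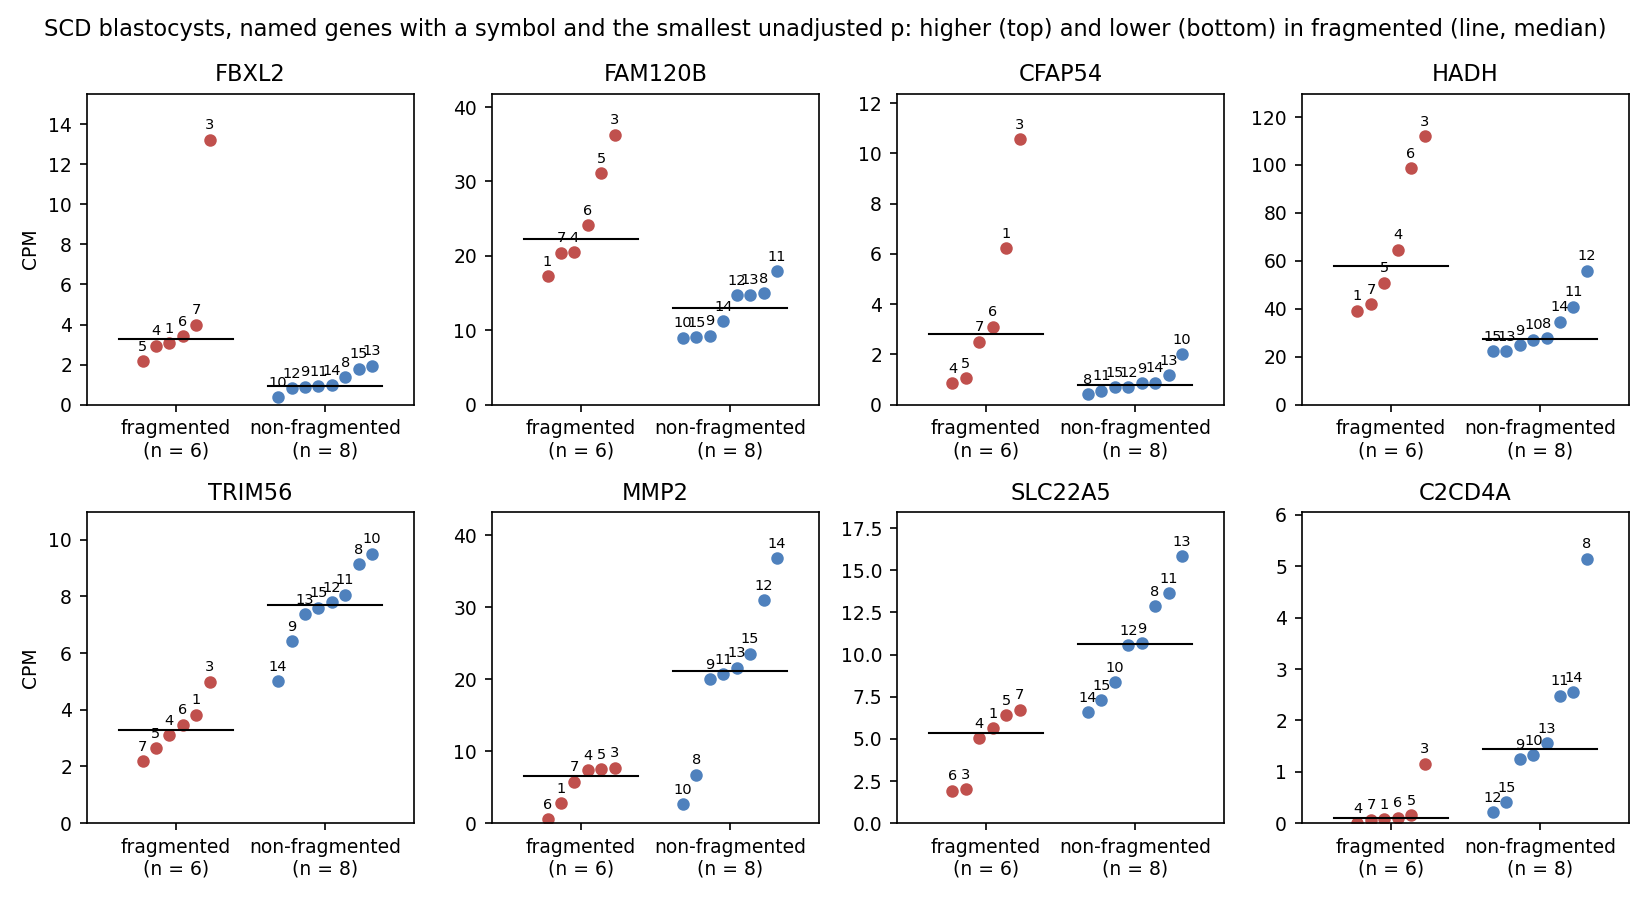
CPM of 8 genes in each SCD blastocyst (points, numbered by blastocyst; line, class median; 6 fragmented and 8 non-fragmented), the 4 higher and the 4 lower genes with a symbol and the smallest unadjusted p-value. FBXL2 and TRIM56 are separated between the classes, at 2.17 CPM or more against 1.94 CPM or less and at 4.99 CPM or less against 5.00 CPM or more, and in the other 6 genes the classes overlap.

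The lineage markers were then compared, to ask whether either class held more RNA of 1 lineage. For the trophectoderm list 0 of 9 tested genes had an unadjusted p-value under 0.05 in edgeR, 4 were above 0, and the median log2 difference was -0.07, beside 0.02 for all 13561 tested genes, of which 52.6% were above 0. KRT18 had a median of 6903 CPM in fragmented and 7031 CPM in non-fragmented blastocysts, and KRT19, another keratin, 1625 CPM and 1209 CPM. GATA3, a transcription factor that drives trophectoderm fate, had 226 CPM and 253 CPM. The log2 difference of GATA3 was 0.21, although its median was lower in fragmented blastocysts. For the epiblast list 0 of 10 genes were under 0.05, 3 were above 0 and the median log2 difference was -0.23, with POU5F1, the core pluripotency factor, at 420 CPM and 480 CPM and DPPA2 at 411 CPM and 431 CPM. DPPA2 had a log2 difference of 0.27, against -0.29 without SCD 3. For the primitive endoderm list 0 of 10 genes were under 0.05, 3 were above 0 and 7 below, and the median was -0.20. The most abundant was APOA1, an apolipoprotein secreted by this layer, at 1678 CPM and 944 CPM. The log2 difference of APOA1 was 0.20, and it ran from -0.02 to 0.47 with 1 blastocyst left out. Without SCD 7, 1 of the 10 was under 0.05, GATA6, an early factor of this layer, with a log2 difference of -0.63 (unadjusted p = 0.0278 in edgeR) against -0.38 with all 14. Without SCD 3 the medians of the 3 lists were 0.05, -0.15 and 0.03, beside -0.00 for all genes, and without both SCD 3 and SCD 7 they were 0.31, -0.10 and 0.29. With 1 blastocyst left out, the trophectoderm median ran from -0.19 to 0.07 and was above 0 without SCD 3, SCD 7, SCD 8 or SCD 12. The epiblast median ran from -0.35 to -0.05, and the primitive endoderm median from -0.39 to 0.03, above 0 only without SCD 3.

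The lineage markers varied far more within the classes than between them. The primitive endoderm sum was at most 1399 CPM in SCD 3, SCD 7, SCD 11, SCD 13, SCD 14 and SCD 15, which are 2 fragmented and 4 non-fragmented blastocysts, and was between 2957 and 4043 CPM in the other 8. APOA1 was lowest in the same 6 blastocysts, with 33.1 CPM in SCD 13, 72.8 CPM in SCD 7 and 113 CPM in SCD 3, against 2571 CPM in SCD 12. RSPO3, a secreted enhancer of WNT signals, had 0.0554 CPM in SCD 13 and 0.208 CPM in SCD 7, against 79.0 CPM in SCD 9 and 75.7 CPM in SCD 1. Blastocysts high and low in APOA1 and RSPO3 were thus found in both classes. Not every gene of the list followed this order, since GATA6 had 558 CPM in SCD 7 and 493 CPM in SCD 13 against 184 CPM in SCD 6 and 298 CPM in SCD 9, and PDGFRA ran only from 115 to 168 CPM over all 14. The trophectoderm sum was lowest in SCD 7 and SCD 13, at 3931 and 5032 CPM, and KRT19 was 76.4 CPM in SCD 7 and 70.6 CPM in SCD 13, with 424 CPM or more in the other 12. CDX2 and TFAP2C of this list were lowest in SCD 3 instead, at 49.0 and 283 CPM. SCD 3 and SCD 7 were each among the 3 lowest in 6 of the 9 genes, and SCD 13 in 8. Epiblast RNA was highest in SCD 14 and SCD 8, at sums of 2494 and 2394 CPM, where POU5F1 was 1013 and 843 CPM.

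**Figure D2:**
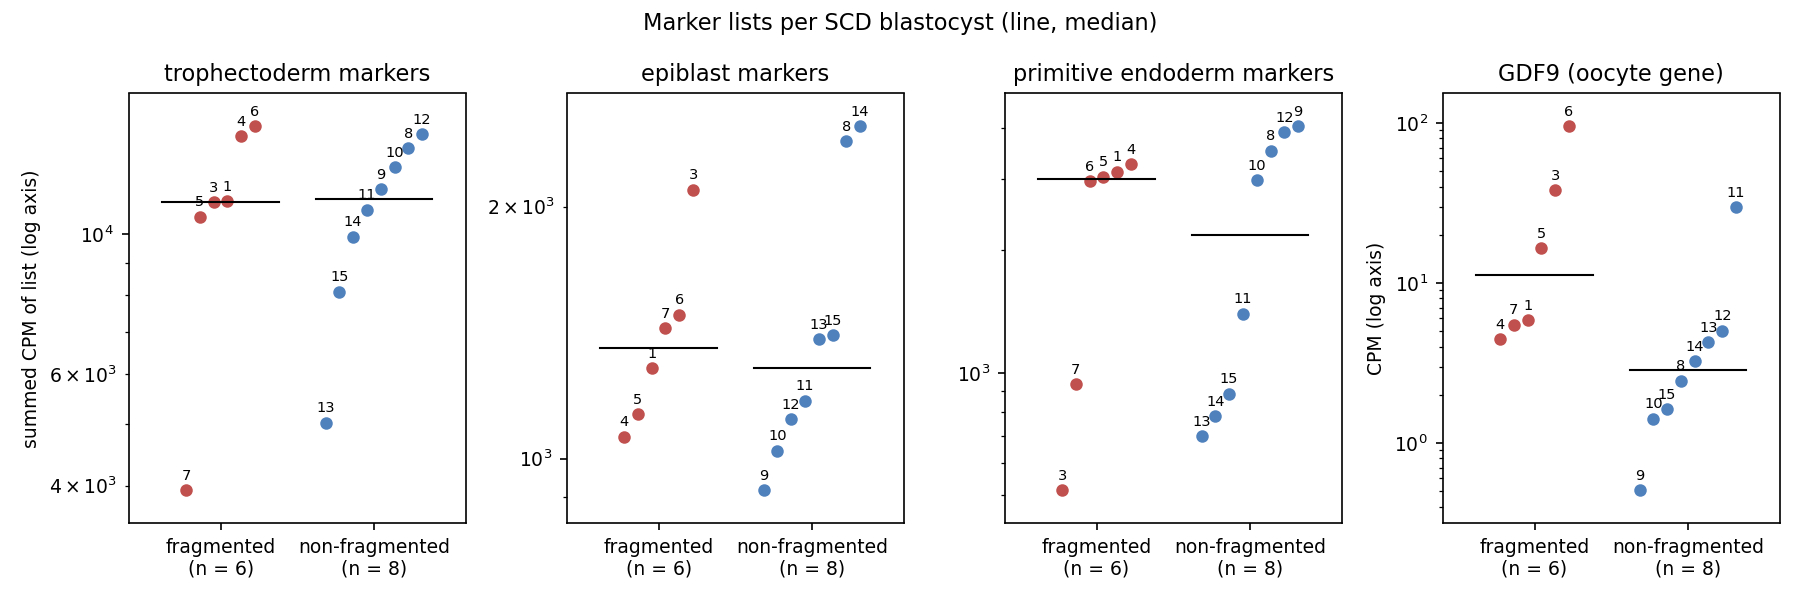
Summed CPM of 3 lineage marker lists, and CPM of the oocyte gene GDF9, in each SCD blastocyst (points, numbered by blastocyst; line, class median; log axes; 6 fragmented and 8 non-fragmented). The classes overlap in every panel, the primitive endoderm sum parts blastocysts of both classes at 1399 CPM and below from those at 2957 CPM and above, and GDF9 is highest in SCD 6, SCD 3 and SCD 11.

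Genes of the oocyte had the largest median difference of the 9 lists of cell types and pathways with a tested gene, and high levels occurred in both classes. The Y-linked genes, which were added after the data were seen, are left out of this order, and their 2 tested genes had a median of 2.08. Of the 15 oocyte genes 8 passed the filter, 6 of these were above 0, and the median log2 difference was 1.72. It was 0.99 without SCD 3, 1.07 without SCD 6, 2.46 without SCD 11 and 1.32 without both SCD 3 and SCD 7. Under an unadjusted p-value of 0.05 in edgeR were 2 of the 8 (25.0%), beside 2.51% of all tested genes, and 1 without SCD 3, 0 without SCD 6 and 5 of 7 without SCD 11. The count was 3 without SCD 1 or SCD 7 and 1 without any single other one of the non-fragmented blastocysts. GDF9 (chromosome 6, 130301964 to 130307221), a growth factor the oocyte sends to its granulosa cells, had 4.45, 11.2 and 95.2 CPM at the lowest, median and highest in fragmented and 0.505, 2.85 and 29.8 CPM in non-fragmented blastocysts. SCD 6, SCD 3 and SCD 5 were the highest fragmented blastocysts and SCD 11 was the highest non-fragmented one. The log2 difference was 2.19 ± 0.84 (SE; unadjusted p = 0.0183 and adjusted p = 0.9995 in edgeR). It was 2.08 without SCD 3, 1.21 without SCD 6 (unadjusted p = 0.149 in edgeR) and 3.39 without SCD 11 (unadjusted p = 0.000268 in edgeR). BTG4, which helps to remove maternal RNA after fertilization, had 0.225, 3.11 and 58.6 CPM against 0.207, 0.678 and 18.5 CPM, a log2 difference of 2.59 ± 1.18 (unadjusted p = 0.0410 in edgeR). It was 1.77 without SCD 6 (unadjusted p = 0.155 in edgeR), 2.08 without SCD 3 (unadjusted p = 0.107 in edgeR) and 4.43 without SCD 11 (unadjusted p = 0.00104 in edgeR), and leaving out any single other non-fragmented blastocyst also took the unadjusted p-value above 0.05, to at most 0.0685. BTG4 overlaps other genes on the opposite strand.

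In most genes of the oocyte list, SCD 3, SCD 6 and SCD 11 were the highest blastocysts. In 12 of the 15 genes these were the 3 highest of the 14 blastocysts, a count made after the values were seen. BMP15, the partner of GDF9, had 27.6 CPM in SCD 3, 18.8 CPM in SCD 6 and 15.4 CPM in SCD 11, and at most 3.45 CPM in the others. ZP3, a sperm-binding protein of the zona pellucida, had 9.90, 8.73 and 5.33 CPM in the same blastocysts and at most 1.76 CPM elsewhere. Of the genes of the subcortical maternal complex, NLRP5 and PADI6 followed this order, but KHDC3L and OOEP did not. Neither did FIGLA, which was highest in SCD 8 at 0.871 CPM and had 0 CPM in SCD 11. KHDC3L, the gene with 61.1% of the counts of the list, was highest in SCD 8, SCD 14 and SCD 6 at 599, 506 and 503 CPM and had 53.5 CPM in SCD 3, with a class median of 160 CPM against 176 CPM. Summed over the list, the level was highest in SCD 6, SCD 8 and SCD 14, at 841.5, 797 and 775 CPM. This sum was 357.5 CPM in SCD 3 and 332.3 CPM in SCD 11. Whether oocyte RNA in SCD 3, SCD 6 and SCD 11 bears on the 340 genes was not tested.

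Genes that respond to damaged DNA were compared together with genes of cell death. Of the 15 tested p53 targets 0 had an unadjusted p-value under 0.05 in edgeR, 4 were above 0, and the median log2 difference was -0.12. It ran from -0.30 (without SCD 7) to -0.01 (without SCD 13) with 1 blastocyst left out, and was -0.24 without SCD 3, with 1 of 15 under 0.05, and -0.38 without both SCD 3 and SCD 7. SESN2, a stress-induced regulator of growth signalling, had a median of 132 CPM in fragmented and 142 CPM in non-fragmented blastocysts, MDM2, which marks p53 for destruction, 96.7 CPM and 125 CPM, and CDKN1A, the cell cycle inhibitor p21, 42.0 CPM and 46.7 CPM. GADD45A, a growth arrest gene, was high in SCD 3 at 143 CPM and in SCD 11 at 143 CPM, and its log2 difference was -0.32 with SCD 3 and -1.07 without it (unadjusted p = 0.0342 in edgeR), and 0.01 without SCD 11. Of the 15 tested genes of apoptosis 1 (6.67%) was under 0.05 and 7 (46.7%) were above 0, beside 2.51% and 52.6% of all tested genes, with a median of -0.00 that ran from -0.10 to 0.04 with 1 blastocyst left out, above 0 without SCD 5, SCD 7, SCD 14 or SCD 15, and was -0.15 without both SCD 3 and SCD 7. The count was 2 without SCD 1 or SCD 7, 1 without SCD 4, SCD 5, SCD 6 or SCD 14, and 0 without any single other one. The gene under 0.05 with all 14 was BID, which carries a death signal to mitochondria, with 2.46, 6.94 and 72.5 CPM in fragmented and 3.30, 5.05 and 17.5 CPM in non-fragmented blastocysts. Its log2 difference was 1.43 ± 0.65 (unadjusted p = 0.0416 in edgeR) and rested on the 72.5 CPM of SCD 3, since it was 0.03 without that blastocyst. The unadjusted p-value in edgeR was also above 0.05, at most 0.0702, without any single non-fragmented blastocyst other than SCD 14. BAK1, which opens the outer mitochondrial membrane, had a log2 difference of -0.53 that was -1.18 without SCD 7 (unadjusted p = 0.00834 in edgeR), and CASP8, the caspase of death receptors, one of -0.13 that was -0.77 without SCD 1 (unadjusted p = 0.0362 in edgeR) and above 0 without SCD 3 or SCD 7, both at 0.04. MCL1, a survival factor, had a median of 309 CPM and 342 CPM.

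Genes that build the spindle and divide the cell were taken as a list of 20. Of the 20 genes 0 had an unadjusted p-value under 0.05 in edgeR, 15 were above 0, and the median log2 difference was 0.04, within a range of -0.48 to 0.32 over the list. The median was -0.04 without SCD 8 and 0.07 without both SCD 3 and SCD 7. CCNB1, the cyclin of mitosis, had 742, 873 and 1094 CPM in fragmented and 373, 856 and 1329 CPM in non-fragmented blastocysts, a log2 difference of 0.10 with a 95% interval of -0.36 to 0.56, and of -0.01 without SCD 8. PLK1, a mitotic kinase, had 467, 573 and 634 CPM against 469, 536 and 565 CPM, a log2 difference of 0.09 with a 95% interval of -0.22 to 0.39. PLK4, the kinase that starts centriole duplication, had a median of 82.0 CPM and 79.7 CPM. The one blastocyst that stood apart was the non-fragmented SCD 8, with a sum of 3296 CPM against 5051 CPM or more in the other 13, and with 42.8 CPM of CDK1, the kinase that CCNB1 activates, against 217 CPM or more elsewhere.

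Genes that handle oxygen radicals were compared in the same way. Of the 10 tested genes 0 had an unadjusted p-value under 0.05 in edgeR, 4 were above 0, and the median log2 difference was -0.07. It ran from -0.18 (without SCD 3) to 0.10 (without SCD 14), and was also above 0 without SCD 5 or SCD 8. Without both SCD 3 and SCD 7 it was -0.16. PRDX1, a peroxidase that gave 40.7% of the sum, had a median of 1161 CPM and 1149 CPM, and HMOX1, which breaks down heme, 629 CPM and 794 CPM. The log2 difference of PRDX1 was -0.11, although its median was higher in fragmented blastocysts. The intervals were wide for some, and CAT, catalase, had a log2 difference of 0.74 with a 95% interval of -0.60 to 2.09. The difference was -0.48 without SCD 3, in which CAT had 33.6 CPM.

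The number of detected genes was compared next, a gene being detected at 1 count or more. Fragmented blastocysts had 17607 detected genes at the lowest, 20755 at the median and 25762 at the highest, and non-fragmented blastocysts 17211, 19749.5 and 21158. SCD 3 had the most, SCD 1 with 21469 was the only other fragmented blastocyst above the highest non-fragmented one, and SCD 5 was near the lowest non-fragmented blastocysts. The mean was 20811 ± 2856 (SD, n = 6) against 19505 ± 1590 (SD, n = 8), a difference of 1306 genes that was within the spread between blastocysts (two-sided exact permutation test, p = 0.316; adjusted p = 0.671 over the 6 library measures). Without SCD 3 the difference was 316 genes (two-sided exact permutation test, p = 0.726). At equal depth, with each blastocyst's counts thinned to 10037852, the means were 19487 ± 3057 and 18225 ± 1073 (two-sided exact permutation test, p = 0.336).

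**Figure D3:**
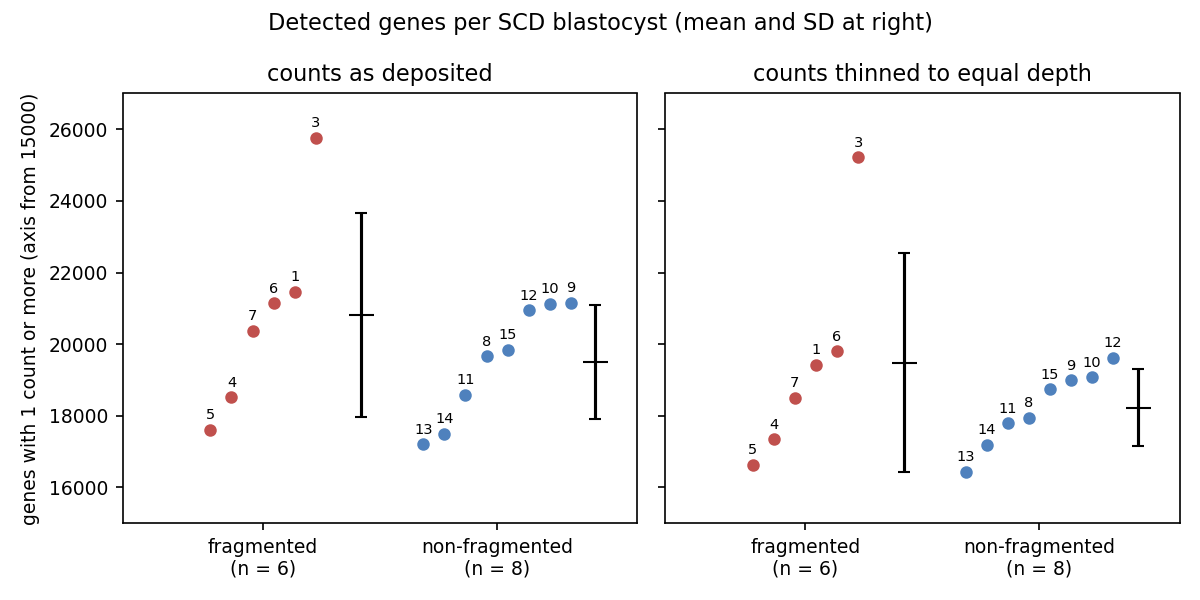
Genes with 1 count or more in each SCD blastocyst, in the deposited counts and in counts thinned to equal depth (points, numbered by blastocyst; bars, mean and SD; the axis does not start at 0; 6 fragmented and 8 non-fragmented). SCD 3 lies above all others, at 25762 and 25223 genes, and the other fragmented blastocysts overlap the non-fragmented ones.

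Detected in all 14 blastocysts were 12268 genes. Of 31784 genes with a count in an SCD blastocyst, 2855 had one in at least 1 fragmented but no non-fragmented blastocyst. Of these 2855 genes 1072 were found in SCD 3 alone, and 1783 remained without SCD 3. In the opposite direction there were 1911 genes, and the classes differ in size, with 6 fragmented and 8 non-fragmented blastocysts. Only 1 gene, ENSMMUG00000060111, had counts in all 6 fragmented and no non-fragmented blastocyst, with 1 to 10 counts each, and no gene had counts in all 8 non-fragmented and no fragmented one. Genes that the filter removed took 0.363% ± 0.3799 (SD, n = 6) and 0.180% ± 0.0452 (SD, n = 8) of the counts, with 1.13% in SCD 3 (two-sided exact permutation test, p = 0.0889; adjusted p = 0.533). The top 20 genes by count held 8.24% ± 0.648 and 8.51% ± 1.06 (two-sided exact permutation test, p = 0.660), and the top 1000 held 54.3% ± 1.32 and 54.5% ± 2.42 (two-sided exact permutation test, p = 0.858).

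Spread between blastocysts was measured as the mean Euclidean distance on log2 CPM over the tested genes. It was 160 among fragmented blastocysts, 152 among non-fragmented ones and 154 between the classes. The spread of the classes differed by 7.32 (two-sided exact permutation test, p = 0.714), and by -6.33 without SCD 3 and -0.311 without SCD 7. The classes were no further apart than their members, with a separation of -2.08 (two-sided exact permutation test, p = 0.532), which was 1.68 without SCD 7. The nearest blastocyst was of the same class for 1 of the 6 fragmented and 6 of the 8 non-fragmented blastocysts, and 4 of the 6 and 3 of the 8 were on average closer to the other class. Gene by gene, the median SD of log2 CPM was 0.68 in fragmented and 0.69 in non-fragmented blastocysts, a median log2 ratio of 0.03 (two-sided exact permutation test, p = 0.918), and -0.21 without SCD 3 and -0.04 without SCD 7. The SD was over 2 times higher in the fragmented class for 900 genes (6.64%) and in the non-fragmented class for 1318 genes (9.72%).

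The classes overlapped along the directions of greatest variation. In a principal component analysis of the 500 most variable genes, PC1 held 41.6% of the variance, and the class accounted for 2.13% of PC1. PC1 was 3.19 ± 20.2 (SD, n = 6) in fragmented and -2.39 ± 20.1 (SD, n = 8) in non-fragmented blastocysts (two-sided exact permutation test, p = 0.610). It was lowest in SCD 7, SCD 13 and SCD 14, at -33.1, -31.5 and -23.9, and highest in SCD 9 and SCD 12, at 21.3 and 19.4. The fragmented SCD 5 and SCD 1 came next, at 18.3 and 17.6. Of the 50 genes with the largest absolute loadings 5 belong to the primitive endoderm list, which has 7 of the 500, and the genes at the positive end include SPARC, FN1, COL1A2 and NID1, which encode matrix proteins. SPARC had 5.38, 337 and 787 CPM in fragmented and 7.20, 145 and 632 CPM in non-fragmented blastocysts. At the negative end stood CTSV, a lysosomal protease, at 1236 CPM in SCD 7, 1141 CPM in SCD 13 and 1890 CPM in SCD 14, and GSC, a transcription factor of gastrulation, at 155 CPM in SCD 7. Both ends therefore held blastocysts of each class.

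PC2 held 19.7% of the variance, and the class accounted for 12.6% of PC2. It was 5.33 ± 18.4 (SD, n = 6) in fragmented and -4.00 ± 7.36 (SD, n = 8) in non-fragmented blastocysts (two-sided exact permutation test, p = 0.230; adjusted p = 0.689 over 3 components), and it was highest in SCD 3, SCD 6 and SCD 11, at 36.6, 19.2 and 10.4. Of the 50 genes with the largest absolute loadings 4 belong to the oocyte list, which has 5 of the 500. OOSP4A, a secreted oocyte protein, had 214 CPM in SCD 3, 181 CPM in SCD 6 and 54.6 CPM in SCD 11, with class medians of 7.65 and 3.09 CPM. BCL2L10, a survival factor abundant in oocytes, had 343 CPM in SCD 6, 287 CPM in SCD 3 and 89.7 CPM in SCD 11, and WEE2, the kinase that holds the oocyte in meiosis, had 153, 65.2 and 92.6 CPM in SCD 6, SCD 3 and SCD 11. The last of these blastocysts is labelled non-fragmented.

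**Figure D4:**
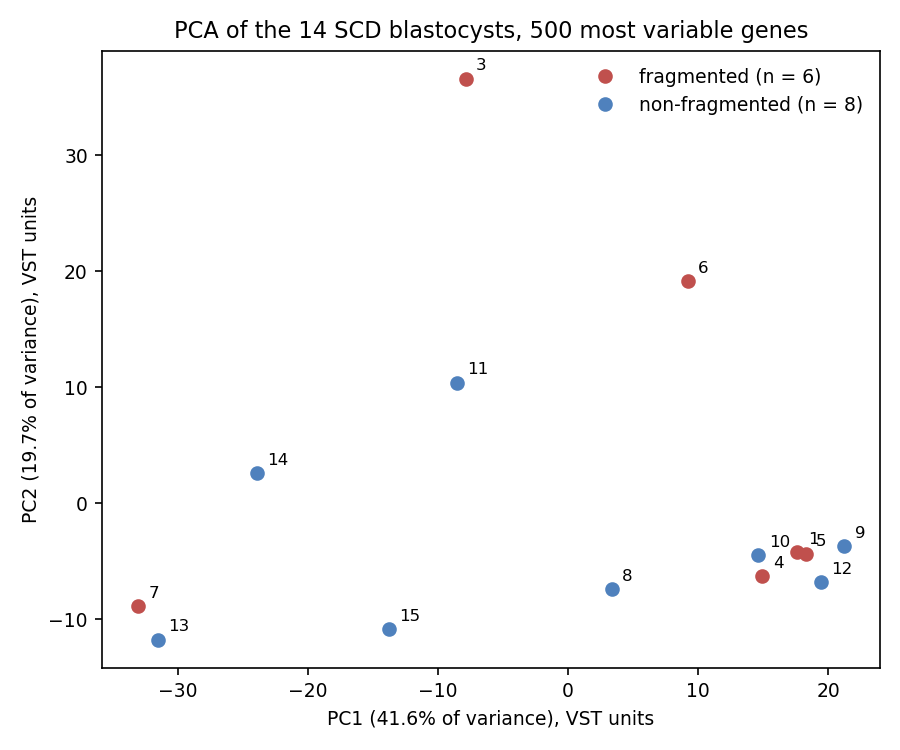
PC1 against PC2 of the 14 SCD blastocysts (points, numbered by blastocyst; 500 most variable genes after a variance-stabilizing transformation). Fragmented and non-fragmented blastocysts overlap on PC1, and SCD 3, SCD 6 and SCD 11 are highest on PC2, at 36.6, 19.2 and 10.4.

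Whether the class difference depends on diet was tested with the WSD blastocysts, which share no blastocyst with the SCD comparison. All SCD blastocysts came from COS #1 and all WSD blastocysts from COS #2, so diet and cycle cannot be told apart here. By the paper's account, females that gave the SCD blastocysts also gave WSD ones, and the tests between diets do not take this into account. For the term that compares the class difference between the diets, 0 of 15285 genes had an adjusted p-value under 0.05 in edgeR, and 501 (3.28%) had an unadjusted p-value under 0.05. DESeq2 called 1 gene, ENSMMUG00000045289, with 683 at an unadjusted p-value under 0.05. Its counts were 192 in SCD 6, 119 in SCD 7 and 0 in the other 12 SCD blastocysts. In WSD blastocysts they were 61, 49, 31, 15, 2, 2 and 1 in 7 of the 9 fragmented and 87, 21 and 3 in 3 of the 8 non-fragmented ones, and 0 in the rest, and edgeR gave it an adjusted p-value of 0.999. Between the WSD classes, 0 of 12724 genes were called by edgeR, with 447 (3.51%) at an unadjusted p-value under 0.05. Of 12500 genes tested in both diets, 17 had an unadjusted p-value under 0.05 in both, which is 6.14% of the 277 SCD genes and 3.91% of the 435 WSD genes, where 3.48% of all 12500 genes were under 0.05 in WSD and 2.22% in SCD blastocysts. Of the 17, 15 had the same direction in both diets, and of all 12500 genes 45% did. Across these 12500 genes the log2 differences of the diets had a Pearson's r of 0.107 and a Spearman's rho of -0.0629, given as a description because genes are not independent. GDF9 had a log2 difference of 2.19 in SCD and 3.45 in WSD blastocysts, and the median of the oocyte genes in WSD blastocysts was 1.80, with 6 of 9 under an unadjusted p-value of 0.05 in edgeR. Values with a WSD blastocyst left out are not given. The WSD medians of the trophectoderm, epiblast and primitive endoderm lists were 0.19, 0.01 and 0.48. Those of the p53, apoptosis, spindle and oxidative stress lists were 0.14, -0.05, 0.21 and -0.25. Of the 20 genes of smallest unadjusted p-value, which were chosen for their difference in SCD blastocysts, 9 had an unadjusted p-value under 0.05 in edgeR for the term between diets, each with an adjusted p-value of 0.999. The lowest unadjusted p-value was that of EMD (0.00128 in edgeR), with log2 differences of -0.73 in SCD and 0.36 in WSD blastocysts. The class difference in detected genes was 1306 in SCD and 2211 in WSD blastocysts, and these did not differ beyond the spread between blastocysts (two-sided exact permutation test within each diet, p = 0.559). At equal depth the class differences were 1262 and 1464 genes (two-sided exact permutation test within each diet, p = 0.901).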

How the data were processed

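The authors trimmed the reads (Trimmomatic 0.39, checked with FastQC 0.11.8), aligned them with STAR 2.7.0 to Mmul_10 and deposited raw counts per Ensembl gene without normalization. Which strand column was kept is not stated. Columns were matched to labels by name, with 0 unmatched. The counts of the SCD blastocysts were tested with edgeR 4.0.16 in R 4.3.3 (glmQLFit with legacy = TRUE and robust = FALSE, glmQLFTest, filterByExpr by class, TMM, Benjamini-Hochberg). Of 31784 genes with a count, the filter removed 18223. Standard errors are approximate (absolute log2 difference over the root of F). CPM used TMM library sizes, and their logs a prior count of 2. DESeq2 1.42.0 gave the Wald test and the variance-stabilizing transformation. Exact permutation tests of all SCD blastocysts, two-sided, used all 3003 ways to choose 6 of 14 blastocysts, and the smallest p-value they can give is 0.000333. Tests with a blastocyst left out, or with the WSD blastocysts, had other numbers of ways. The steps were tested on simulated data first. Among the SCD libraries, none was a copy of another of the same class (lowest chi-square per degree of freedom 43.7 over 43 pairs within a class). Other pairs were not compared.

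Symbols came from a RefSeq table of gene names, which matched 24173 of 35395 identifiers and 12258 of the tested genes. KRT8, TEAD4, SOX2 and FAS were among the symbols not matched. Positions come from the RefSeq annotation of Mmul_10, matched by symbol. The named genes are the 10 genes of smallest p-value in each direction and, from each gene list, its count, median and the most abundant members, and some of these genes are not reported here. Members with other roles, and genes at the ends of the components, were added after their values were seen. The members and the lists were chosen with earlier results of these data known. Alternatives were DESeq2, RLE scaling, other filters, legacy = FALSE, robust = TRUE, covariates for depth and detected genes, all 31 blastocysts, other distances, transformations and detection thresholds, each blastocyst left out, and the comparison without SCD 3 and SCD 7. For the called genes, detected genes, spread, separation and PC1 these were planned, each blastocyst left out included. The counts at an unadjusted p-value under 0.05 with every alternative, and the alternatives for the other library measures, the difference of detected genes between diets, lists and named genes, were chosen after seeing the data.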

Additional observations from a re-analysis of the deposited data

Results flagged for a closer look

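In 78 groups of 6 or 8 blastocysts, 12 values were set apart by Dixon's test, which compares the gap to the next value with the range of the class. Levels of genes and of gene lists were tested as log2 CPM with a prior count of 2, so the gap can be a smaller part of the range in CPM, and a low value near 0 depends on the prior count. Chance sets apart about 1 in 20 groups, or 3.9 of 78, and 4 of the 12 values belong to SCD 3. The causes were not tested.

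SCD 3 stood above the other fragmented blastocysts in detected genes at equal depth (25223, next 19807) and in the share of counts on genes the filter removed (1.13%, next 0.303%). It had the highest FBXL2 (13.2 CPM, next 3.99 CPM) and the lowest EMD (23.1 CPM, next 29.5 CPM) of that class. SCD 7 had the lowest trophectoderm sum of the fragmented blastocysts (3931 CPM, next 10654 CPM), and SCD 5 the lowest sum of oxidative stress genes (1774 CPM, next 2489 CPM).

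Among non-fragmented blastocysts, SCD 8 had the highest share of counts on the 20 top genes (10.9%, next 8.80%) and the lowest sum of cytokinesis and spindle genes (3296 CPM, next 5122 CPM). SCD 12 had the highest sum of sperm genes, at a level near 0 (0.487 CPM, next 0.0914 CPM). SCD 13 had no count of EZHIP (0 CPM, next 0.498 CPM), SCD 9 had the lowest EMD (22.1 CPM, next 40.8 CPM) and SCD 14 the lowest TAOK2 (14.7 CPM, next 42.8 CPM).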

How the results depend on the processing

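Between the SCD classes 0 genes were called under each alternative. Genes with an unadjusted p-value under 0.05 numbered 141 with detected genes as a covariate, 448 with DESeq2 and 3466 without a filter, and 184 (without SCD 3) to 629 (without SCD 7) with 1 blastocyst left out. For the diet by fragmentation term, DESeq2 called 1 gene where edgeR called 0. Without SCD 3 and SCD 7, the difference of spread within classes was -21.5, the separation of classes 2.69 and the median log2 ratio of SD -0.38, each of opposite sign to its value in all 14 blastocysts. This pair had the largest mean distances to their own class among the fragmented blastocysts, 187 and 175. Leaving them out therefore lowers the spread of that class by construction. No such pair was left out of the non-fragmented class, in which SCD 8 was at 173. With 1 blastocyst left out, the difference of spread ran from -6.33 (without SCD 3) to 15.1, also below 0 without SCD 7, and the separation from -4.56 to 1.68 (without SCD 7). The log2 ratio of SD ran from -0.21 (without SCD 3) to 0.19, also below 0 without SCD 7, SCD 10, SCD 12 or SCD 15. The difference of PC1 in units of its SD, 0.28 with all, ran from -0.0561 (without SCD 13) to 0.47. The difference in the share of the top 20 genes ran from -0.456 to 0.0721 (without SCD 8). That of the top 1000 ran from -0.563 to 0.501 (without SCD 8), also above 0 without SCD 5, SCD 7 or SCD 14. That of the removed share ran from 0.0296 (without SCD 3) to 0.233, with two-sided exact permutation p-values of 0.0497 without SCD 4 and 0.0280 without SCD 5. The causes were not tested. No paired analysis was possible because the labels do not give the female of origin of each blastocyst. Precision was lowest for genes under 1 CPM.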

Other observations

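Genes of the Y chromosome, chosen after the data were seen, divided the SCD blastocysts clearly. Summed over 8 such genes, DDX3Y and RPS4Y1 among them, the level was 685 CPM in SCD 6, 788 CPM in SCD 7 and 472 CPM in SCD 11, and at most 3.11 CPM in the other 11 blastocysts. DDX3Y, an RNA helicase, had at most 261 CPM in a fragmented and 136 CPM in a non-fragmented blastocyst. RPS4Y1 and RPS4Y2 are near-identical, so reads may be shared between them. Blastocysts with high and with low Y-linked levels were in both classes.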
